A study of Mus musculus with 2 samples.

Results

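The genes described here are 7 genes of cholesterol metabolism, Dhcr7, Sc5d, Lss, Sqle, Hmgcs1, Insig1 and Srebf2, measured in single cells of the hippocampus of aged mice. They were found by gene symbol among the 19059 genes of the deposited tables, all 7 were present, and they were chosen because tomatidine, the compound tested, is a steroidal alkaloid that can act on sterol synthesis. None of the 7 is a gene of cholesterol uptake, so receptors for lipoproteins are described further on from a separate list. C57BL/6 mice received standard chow (control) or chow with 0.05% tomatidine for 3 months, starting at 21 months of age, and the study used mice of both sexes. Flash-frozen hippocampi were fixed and dissociated, 4 mice were pooled per group, and each group gave 1 library of the 10x Genomics Fixed RNA Profiling assay, in which pairs of probes are hybridised to known transcripts and counted through molecular identifiers (UMIs). The spread between mice therefore cannot be estimated, no statistical test of tomatidine was possible, and every interval below covers counting error only.

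Neurons and glia of the adult brain make their own cholesterol, because lipoproteins of the blood hardly cross the blood-brain barrier. Synthesis starts from acetyl-CoA, passes through mevalonate to squalene, and closes the sterol rings in a chain of enzymes that ends in cholesterol. When membranes of the endoplasmic reticulum are low in sterol, SREBP2, the product of Srebf2, travels to the Golgi, is cut, and switches on nearly the whole chain. INSIG1 holds SREBP2 and its escort SCAP back when sterol is plentiful, and Insig1 is itself an SREBP2 target. In the brain, astrocytes supply cholesterol to neurons in apolipoprotein E particles, and oligodendrocytes need it for myelin.

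Each member has a known place in this chain. Hmgcs1 encodes the cytosolic HMG-CoA synthase that feeds the mevalonate pathway and lies at chr13:119690379-119708260 on the plus strand of GRCm38 (mm10). Sqle encodes squalene epoxidase, the first step that needs oxygen, at chr15:59315077-59331192 on the plus strand. Lss encodes lanosterol synthase, which closes the rings, at chr10:76531588-76557138 on the plus strand. Sc5d encodes the sterol C5 desaturase, at chr9:42251595-42264256 on the minus strand, and Dhcr7 encodes the reductase that turns 7-dehydrocholesterol into cholesterol, at chr7:143823145-143848410 on the plus strand. The regulators Insig1 and Srebf2 lie on plus strands at chr5:28071363-28078662 and chr15:82147181-82205379. The positions are whole genes of the GENCODE M21 annotation, since the part of each transcript that the probes bind was not given in the sources used here.

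Promoter windows of the 250 bases before an annotated RefSeq start (build GRCm38.p6) were held for 6 of the 7 members, in 8 windows, with no window for Sqle. A short form of the sterol regulatory element, TCACNCCA on either strand, was found in Hmgcs1 and Srebf2 and in 3.67% of all 32851 windows of the same length. The CCAAT box, on either strand, was found in 6 of the 8 member windows, beside 33.85% of all windows. Windows holding both motifs made up 1.29% of all windows. Each of the 6 members had at least 1 window with the CCAAT box. For Dhcr7 this was only the window at chr7:143829964-143830213, which lies within the GENCODE gene. The 3 windows below are shown because Hmgcs1 and Srebf2 carry both motifs and because Insig1 had the largest ratio between the libraries. They are written 5′ to 3′ on the plus strand and are cut where the GENCODE gene begins. Capitals mark matches of the sterol element and of the CCAAT box. The E-box CACGTG was also searched for, and is left in lower case in the Insig1 window. It was found in 3 of 8 member windows, of Dhcr7, Sc5d and Insig1, beside 6.02% of all windows.
Hmgcs1, chr13:119690101-119690350: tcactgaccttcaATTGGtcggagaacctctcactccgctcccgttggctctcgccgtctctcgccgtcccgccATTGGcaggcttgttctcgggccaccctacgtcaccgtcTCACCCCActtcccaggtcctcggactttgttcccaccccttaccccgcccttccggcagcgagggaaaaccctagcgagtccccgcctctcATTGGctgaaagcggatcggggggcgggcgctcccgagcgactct
Srebf2, chr15:82147019-82147180: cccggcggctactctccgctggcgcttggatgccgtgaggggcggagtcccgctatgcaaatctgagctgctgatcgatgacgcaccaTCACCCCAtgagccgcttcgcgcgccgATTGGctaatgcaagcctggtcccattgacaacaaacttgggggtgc
Insig1, chr5:28071162-28071362: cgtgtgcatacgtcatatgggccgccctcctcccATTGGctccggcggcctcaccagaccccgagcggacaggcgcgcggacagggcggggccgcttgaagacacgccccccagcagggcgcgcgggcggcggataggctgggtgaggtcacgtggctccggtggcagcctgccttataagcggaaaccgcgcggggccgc
In Hmgcs1 the sterol element began 137 bases before the start, and CCAAT boxes began 237, 176 and 45 bases before it. In Srebf2 the element began 162 and the CCAAT box 135 bases before the start, and none of these matches overlapped. These distances run to the RefSeq start, at the end of the uncut window. For Srebf2 the uncut window ends at chr15:82147268, beyond the end of the printed sequence. No match in a window says only that these letters are not there.

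The control and tomatidine libraries held 15912 and 15185 cells, of which 15114 and 14532 were kept, with medians of 7065.5 and 7416 UMIs per cell. The filters removed many of the deepest cells, so that kept cells held 206461688 of 279525565 UMIs in the control library and 200889479 of 259059908 in the tomatidine library. Cells were grouped into 36 clusters without the sterol genes, and 28 clusters were named by marker genes. The names are rebuilt here and are not those of the study. Dentate granule, CA1 and CA3 neurons, which define the hippocampus, were found in both libraries. The control and tomatidine libraries differed in their mix of cells, with 3.98% and 6.52% neurons of subcortical type and 2.49% and 0.337% choroid plexus-like cells. The libraries shared 292 cell barcodes. Levels are given as CPM, the UMIs of a gene per 1000000 UMIs of the same cells. The number of probes per gene was not given, so levels were compared between cells and never between genes.

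Per UMI of the same cells, the summed members stood highest in oligodendrocyte-like and astrocyte-like cells of both libraries and lowest in dentate granule neuron-like cells. The members summed to 1478 CPM (95% Poisson interval 1461 to 1495) in 3090 control oligodendrocyte-like cells and 1500 CPM in 2388 tomatidine ones. In astrocyte-like cells they summed to 1442 CPM (1420 to 1465) in the control and 1653 CPM (1632 to 1675) in the tomatidine library. Dentate granule neuron-like cells held 556 and 533 CPM, which was 2.66 and 3.1 times below the highest group of the same library. The order of the 12 groups below the top pair was alike in both libraries. It ran from deep-layer or subicular neurons (1345 and 1246 CPM) through CA3 neurons, oligodendrocyte precursors (OPC), subcortical neurons, interneurons, endothelial cells, CA1 neurons and meningeal cells to microglia (573 and 640 CPM). Neighbours in that order whose intervals overlapped in both libraries were CA3 neurons and OPC, and CA1 neurons and meningeal cells. In the control library alone, oligodendrocyte-like and astrocyte-like cells also overlapped, as did interneurons and endothelial cells, and microglia and dentate granule neurons.

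**Figure D1:**
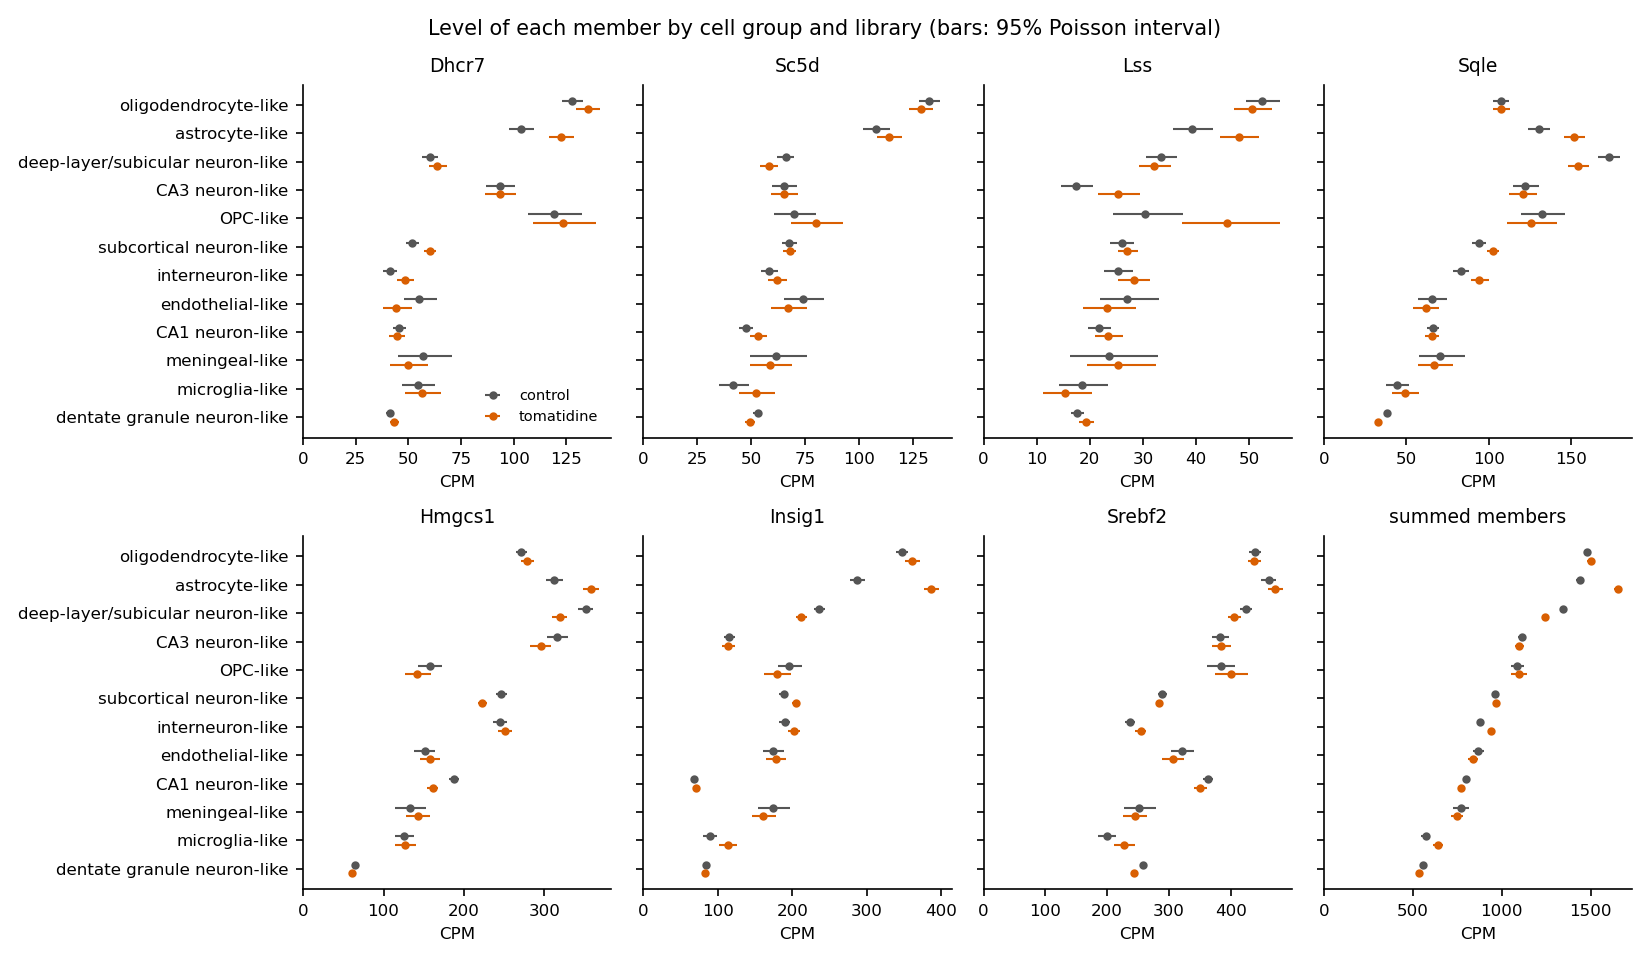
CPM (linear axis) of each member and of their sum in 12 cell groups, for the control (grey) and tomatidine (orange) library, with 95% Poisson intervals. Dhcr7, Sc5d and Lss had their highest values in oligodendrocyte-like cells, with intervals of Dhcr7 and tomatidine Lss that overlap those of the next group, while Sqle and Hmgcs1 were also high in deep-layer neurons, and the shift of Insig1 between libraries is largest in astrocyte-like cells.

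The members did not share 1 pattern. The late enzymes Dhcr7, Sc5d and Lss had their highest values in oligodendrocyte-like cells of both libraries. Dhcr7 stood there at 128 and 135 CPM, with intervals that overlapped those of OPC-like cells (119 and 123 CPM), against 41.4 and 43.3 CPM in dentate granule neurons. Sc5d stood at 132 and 128 CPM in oligodendrocyte-like cells, with no overlap. Lss stood at 52.5 and 50.6 CPM, and in the tomatidine library it overlapped astrocyte-like cells (48.1 CPM). Sqle had its highest values in deep-layer or subicular neurons, at 173 and 154 CPM, the latter overlapping astrocyte-like cells at 152 CPM. Its lowest were in dentate granule neurons, at 38.2 and 33.1 CPM, the former overlapping control microglia-like cells. Hmgcs1 spread the most among neurons. It was 352 and 319 CPM in deep-layer or subicular neurons, 316 and 296 CPM in CA3 neurons, 188 and 161 CPM in CA1 neurons, and 65 and 60.6 CPM in dentate granule neurons. Intervals of these 4 neuron groups did not overlap within the tomatidine library or within the control library. Insig1 was lowest in CA1 neurons, at 68.2 and 70.6 CPM, and more than 5 times as high in oligodendrocyte-like cells, at 347 and 361 CPM. Srebf2 varied the least, between 199 CPM in control microglia-like and 472 CPM in tomatidine astrocyte-like cells.

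Over all kept cells the 7 members were slightly higher in the tomatidine library. Their sum was 959 CPM (955 to 964) in the control and 1006 CPM (1002 to 1010) in the tomatidine library, a log2 ratio of 0.07 (95% counting interval 0.06 to 0.08), while the median of 14620 genes with at least 100 UMIs was 0.03. Insig1 had the highest log2 ratio, 0.18 (169 and 192 CPM), followed by Lss with 0.14 (26.9 and 29.7 CPM), Sqle with 0.10 (88.3 and 94.7 CPM), Dhcr7 with 0.08 (62.8 and 66.4 CPM) and Hmgcs1 with 0.05 (211 and 219 CPM). Sc5d (67.8 and 68.4 CPM) and Srebf2 (333 and 335 CPM) both had log2 ratios of 0.01. The counting interval lay above 0 for 5 of the 7, but at this depth it did so for 42.4% of all genes, and no member was 25% higher or lower by the same fold, the size used below as a call. Astrocyte-like cells contributed 8.15% of the members' UMIs in the control and 11.2% in the tomatidine library, and oligodendrocyte-like cells 14.9% and 11.4%, so the mix of cells moved with this ratio and the groups were compared one by one.

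Astrocyte-like cells showed the largest difference of the summed members among the 9 classes with at least 100 cells per library. In 1802 control and 2112 tomatidine cells the log2 ratio was 0.20 (0.17 to 0.23), beside a median of 0.01 over 11612 genes, and all 7 members were above 0. Insig1, the brake on SREBP2, was 287 CPM (278 to 297) in the control and 387 CPM (376 to 397) in the tomatidine library, a log2 ratio of 0.43 (0.36 to 0.49). It was the only member at least 25% higher, as were 4.28% of all genes, and 223 of the 11612 genes had a higher ratio. Lss was 39.3 and 48.1 CPM, a log2 ratio of 0.29 (0.11 to 0.47). Dhcr7 was 104 and 123 CPM, a log2 ratio of 0.24 (0.13 to 0.35). Sqle was 130 and 152 CPM, with 0.22 (0.13 to 0.32), and Hmgcs1 was 313 and 358 CPM, with 0.19 (0.13 to 0.26). The intervals of these 5 genes lay above 0, as did those of 13.1% of all genes. Sc5d (108 and 114 CPM, 0.08) and the transcription factor gene Srebf2 (461 and 472 CPM, 0.03) had intervals that held 0.

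**Figure D2:**
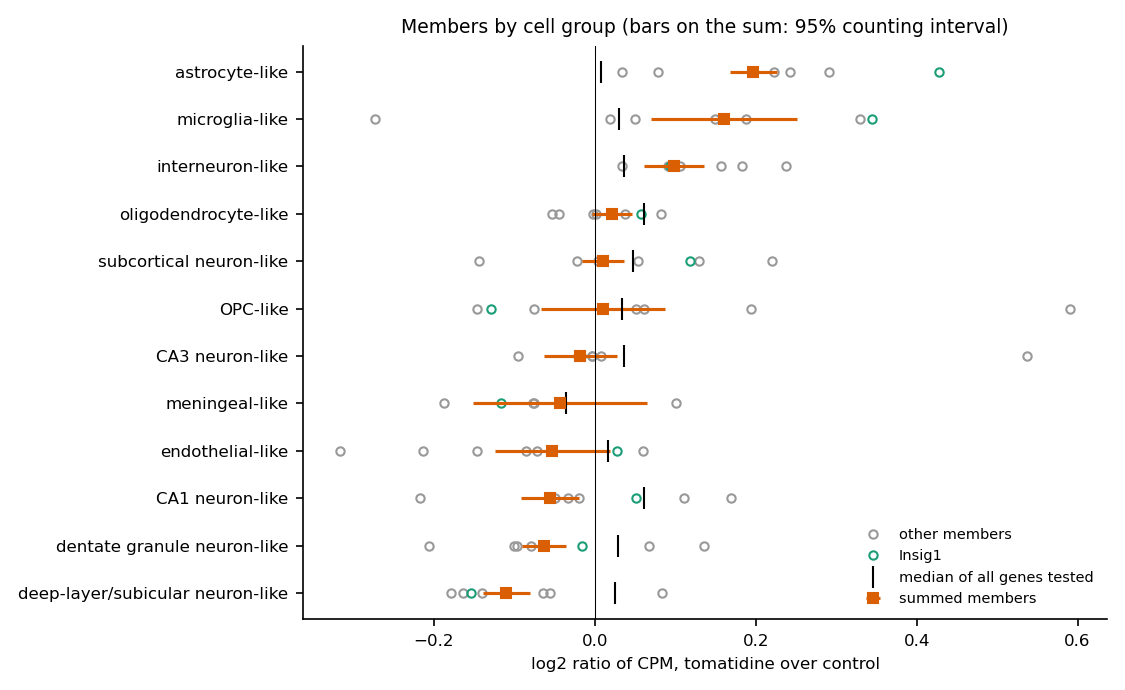
Log2 ratio of CPM, tomatidine over control, for the summed members (orange squares, 95% counting interval), each member with at least 100 UMIs (circles, Insig1 in green) and the median of all genes tested (black tick) in 12 cell groups. The sum lies at 0.20 in astrocyte-like cells and at -0.11 in deep-layer or subicular neurons, and the ticks stay near 0.

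Astrocyte-like cells fell into 4 clusters, and the sum was higher in the tomatidine library in each. The largest, led by Slc25a18 and Acsbg1, had 1130 and 1207 CPM in 1271 control and 1383 tomatidine cells, a log2 ratio of 0.09 (0.05 to 0.14). The cluster led by Cyp4f15 and Mfge8 had 1782 and 2101 CPM, a ratio of 0.24 (0.18 to 0.29), in 284 and 381 cells. The cluster led by Agt and Sfrp5 had 1640 and 1966 CPM, a ratio of 0.26 (0.15 to 0.38), in 105 and 206 cells. The cluster led by Myoc, Thbs4 and Gfap, an astrocyte intermediate filament gene, had 1829 and 2480 CPM, a ratio of 0.44 (0.38 to 0.50), in 142 cells of each library. Insig1 was above 0 with its interval in all 4 clusters, at 0.37, 0.47, 0.27 and 0.63 in the order given. Hmgcs1 stood at 0.61 (0.49 to 0.73) in the Myoc cluster, where it was 418 and 638 CPM, and between 0.07 and 0.29 in the others, whose intervals held 0.

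**Figure D3:**
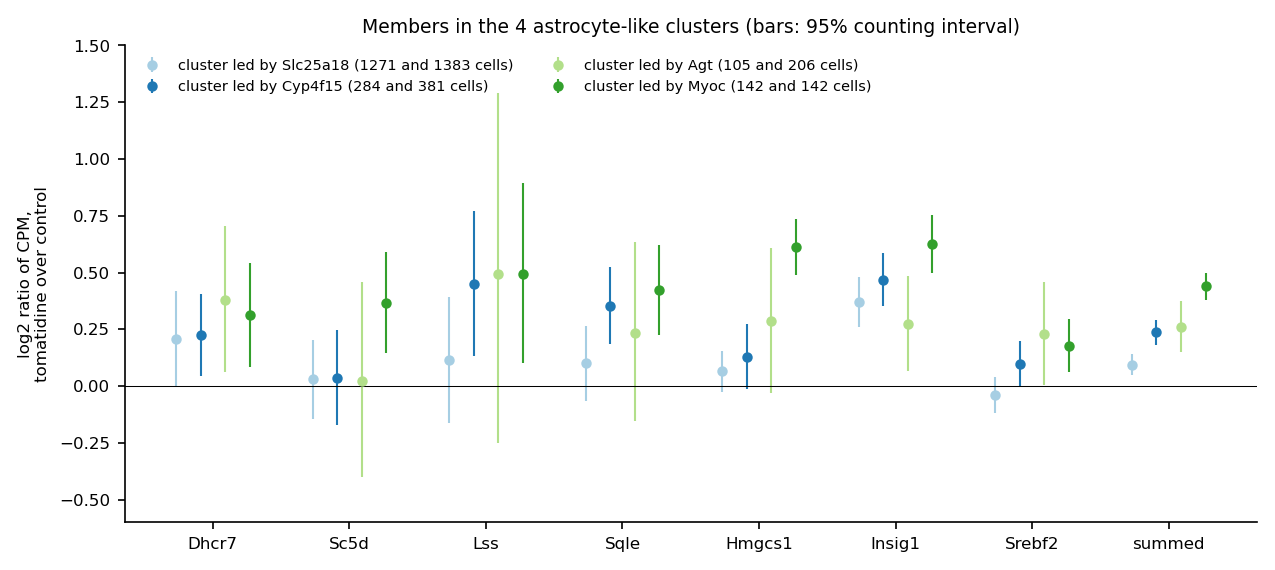
Log2 ratio of CPM, tomatidine over control, of each member and their sum in the 4 astrocyte-like clusters, named by their leading gene with control and tomatidine cell numbers, and with 95% counting intervals. Insig1 lies above 0 in each cluster, from 0.27 to 0.63, and the Myoc-led cluster has the highest ratio of the sum, 0.44.

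The shares of the 4 clusters differed between the libraries, so the ratio was also taken with both libraries given the same mix of clusters. It was then 0.23 for the sum and 0.44 for Insig1. Without the Myoc-led cluster, the sum had a ratio of 0.15, and without the Slc25a18-led cluster it had 0.31. These 3 settings were chosen after the values were seen. Astrocyte-like cells of the tomatidine library were deeper, with a median of 4386 UMIs against 3757. Counts of markers of other cells also differed within the class. The 29 oligodendrocyte markers summed to 9185 CPM in the control and 7227 CPM in the tomatidine library, the 20 interneuron markers to 1753 and 2101 CPM, and the 21 choroid plexus markers to 1109 and 178 CPM, with none of these at 0 in either library. The 31 astrocyte markers summed to 34934 and 35601 CPM. The part of depth and of these markers in the ratio of the members was not tested.

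Other enzymes of cholesterol synthesis were higher in the same astrocyte-like cells. The cholesterol efflux transporters Abca1 and Abcg1 were lower, Abcg1 mainly in the Myoc-led cluster. Of 7 further enzymes on the way to squalene, 6 were above 0, 3 with their interval, beside 13.1% of all genes, and the median log2 ratio was 0.18. Fdft1, squalene synthase, was 195 and 244 CPM, a log2 ratio of 0.32 (0.24 to 0.40), and Mvk, mevalonate kinase, was 52.8 and 63.5 CPM, a ratio of 0.27 (0.11 to 0.42). At the other end of this list, Fdps had 0.09 (-0.03 to 0.21) and Acat2 had -0.10 (-0.30 to 0.10). Of 7 enzymes after squalene, 6 were above 0, 4 with their interval, beside the same 13.1%, and the median was 0.26. Tm7sf2, a sterol reductase, was 50.8 and 63.5 CPM, a ratio of 0.32 (0.17 to 0.48), and Cyp51, the lanosterol demethylase, was 108 and 132 CPM, a ratio of 0.29 (0.19 to 0.40). Tm7sf2 had intervals that held 0 in the Slc25a18-led (0.12) and Cyp4f15-led (0.26) clusters, and above 0 in the Agt-led (0.92) and Myoc-led (0.66) ones. Mvk had intervals that held 0 in the Slc25a18-led (0.19) and Myoc-led (0.12) clusters, and above 0 in the Cyp4f15-led (0.33) and Agt-led (0.97) ones. Ebp, the sterol isomerase, had 0.02 and Lbr had -0.13, and both intervals held 0. These lists were drawn up with results of these data known, and their medians stand beside the 0.01 of all genes.

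Sensing, uptake and efflux genes did not move as 1 group. The 9 genes of sterol sensing had a median of 0.03, none with an interval above 0. Stard4, a sterol carrier, had 0.18 (-0.03 to 0.39), Nr1h2, an LXR receptor, had 0.09 (-0.07 to 0.26), Srebf1 had -0.09 (-0.17 to -0.01) and Mylip, a ubiquitin ligase induced by LXR, had -0.13 (-0.45 to 0.19). Among 7 uptake and lysosomal genes the median was -0.06. Lrp1, a receptor that takes up lipoproteins, had 0.05 (0.01 to 0.10) and Lipa, the lysosomal acid lipase, had 0.01 (-0.23 to 0.25). Npc1, which exports cholesterol from lysosomes, had -0.10 (-0.18 to -0.02), or -0.02 with the same mix of astrocyte-like clusters in both libraries, and Vldlr had -0.18 (-0.41 to 0.05). Among 10 genes of efflux, storage and removal the median over the 9 with at least 100 UMIs was 0.05. Abca1, the transporter that loads cholesterol onto apolipoproteins, was 160 and 131 CPM, a ratio of -0.30 (-0.39 to -0.20), and its relative Abcg1 was 27.6 and 21.8 CPM, a ratio of -0.34 (-0.58 to -0.11). Apoe was 16515 and 15703 CPM, a ratio of -0.07. Abcg4 (0.14, -0.05 to 0.32) and Lcat, which esterifies cholesterol in lipoproteins (312 and 356 CPM, 0.19, 0.13 to 0.25), were at the upper end. Lcat stood at 0.74 in the Myoc-led cluster and between -0.16 and 0.11 in the other 3, whose intervals held 0. Fdft1 and Cyp51 were above 0 and Abca1 and Abcg1 below 0 in each of the 4 astrocyte-like clusters, with some intervals holding 0. Abcg1 stood at -0.83 (-1.30 to -0.37) in the Myoc-led cluster, on 111 and 63 UMIs. In the other 3 clusters it stood between -0.62 and -0.07, and their intervals held 0.

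**Figure D4:**
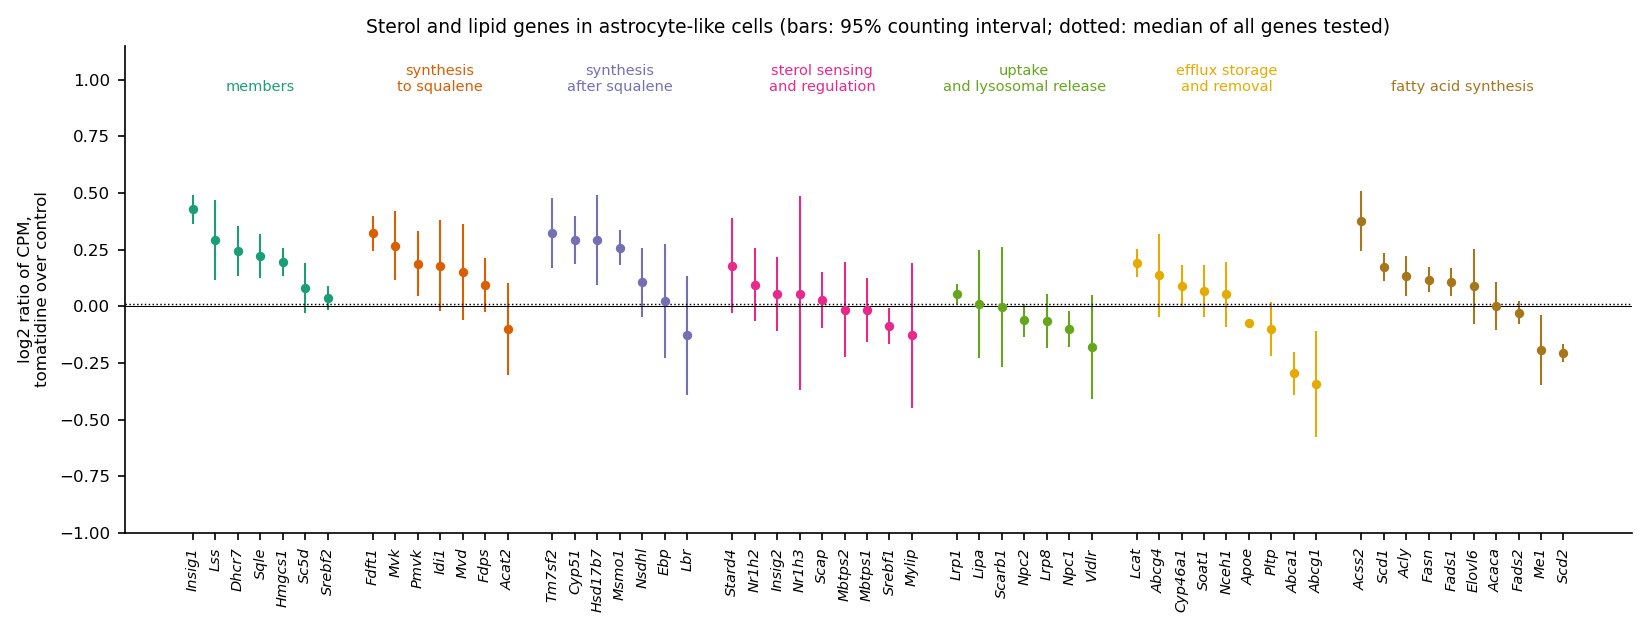
Log2 ratio of CPM, tomatidine over control, in astrocyte-like cells for the members and 6 lists of sterol and lipid genes with at least 100 UMIs, with 95% counting intervals and the median of all genes tested (dotted, 0.01). Most synthesis enzymes lie above 0, and Abca1 and Abcg1 lie below 0 at -0.30 and -0.34.

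Of 10 fatty acid synthesis genes, which SREBP1 drives, 7 were above 0 in astrocyte-like cells and the median was 0.10. Acss2, acetyl-CoA synthetase, was 69.3 and 90 CPM, a log2 ratio of 0.38 (0.25 to 0.51), and Scd1 was 337 and 380 CPM, a ratio of 0.17 (0.11 to 0.23). Scd1 stood at 0.43 (0.31 to 0.56) in the Myoc-led cluster and at 0.08 (-0.002 to 0.16) in the Slc25a18-led one. It stood at 0.18 (0.02 to 0.34) in the Cyp4f15-led and 0.13 (-0.14 to 0.39) in the Agt-led cluster. The desaturase gene Scd2 was lower, at 898 and 779 CPM, a ratio of -0.21 (-0.25 to -0.17), and Me1, malic enzyme, had -0.19 (-0.35 to -0.04).

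Over all kept cells the 2 lists of synthesis enzymes had medians of 0.14 and 0.11, beside 0.03 for all genes. On the way to squalene, Fdft1 (153 and 176 CPM, 0.21) and Pmvk (0.18) were the highest and Fdps (-0.03) and Mvd (0.13) the lowest. After squalene, Tm7sf2 (0.24) and Cyp51 (75.7 and 84.3 CPM, 0.15) were the highest and Lbr and Ebp (both -0.02) the lowest. Stard4 and Nr1h3, another LXR receptor, led the sensing genes at 0.29 and 0.30, and Srebf1 (-0.13) and Mbtps2 (-0.05), a protease that cuts SREBPs, closed them. Uptake genes ran from Lipa (-0.19) and Npc1 (-0.18) to Lrp8 (0.11) and Lrp1 (0.12). The efflux list ran from Ch25h (-0.21) and Abca1 (-0.16) to Abcg4 (0.20) and Lcat (0.32), and fatty acid synthesis from Scd2 (-0.26) and Me1 (-0.12) to Fads2 (0.10) and Acss2 (0.29).

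Dentate granule and deep-layer or subicular neurons went slightly the other way. In 2759 control and 2129 tomatidine dentate granule neuron-like cells, the summed members were 556 and 533 CPM, a log2 ratio of -0.06 (-0.09 to -0.04), while the median of all genes was 0.03. Sqle had the lowest ratio there, -0.21 (38.2 and 33.1 CPM), and Sqle, Hmgcs1, Sc5d and Srebf2 had intervals below 0, 4 of 7 members beside 14.2% of all genes. Lss (0.14) and Dhcr7 (0.07) were above 0 with intervals that held 0. In deep-layer or subicular neuron-like cells, 494 and 484 cells, the sum was 1345 and 1246 CPM, a ratio of -0.11 (-0.14 to -0.08). There 5 of 7 members had intervals below 0, beside 11.3% of all genes. They were Sc5d (-0.18), Sqle (-0.16), Insig1 (-0.15), Hmgcs1 (-0.14) and Srebf2 (-0.06). No member was called higher or lower by fold in either neuron group. Both groups were shallower in the tomatidine library. Median UMIs were 13970 in control and 12645 in tomatidine dentate granule neuron-like cells, and 30198 and 24816 in deep-layer or subicular ones. The part of depth was not tested.

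In CA1 neurons Hmgcs1 had the lowest ratio of the members. It was 188 CPM (181 to 194) in 632 control and 161 CPM (154 to 168) in 547 tomatidine cells, a log2 ratio of -0.22 (-0.30 to -0.14), while Sc5d had 0.17 (0.03 to 0.31). The sum had a ratio of -0.06 (-0.09 to -0.02) in CA1 neurons, which reached 0.0029 when all deposited cells were clustered again, and -0.02 (-0.06 to 0.03) in CA3 neurons. In CA3 neurons Lss was 17.4 and 25.3 CPM on 131 and 168 UMIs, a ratio of 0.54 (0.20 to 0.88). It was the only member at least 25% higher there, beside 9.71% of all genes. CA1 neurons of the tomatidine library were shallower, with a median of 17312 UMIs against 24790, and CA3 neurons deeper, with 15132 against 12078. The part of depth was not tested. Over all excitatory neurons the sum had a ratio of 0.00 (-0.01 to 0.02), beside a median of 0.05 for all genes. With the same mix of clusters in both libraries, a setting chosen after the values were seen, the ratio was -0.07.

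Interneurons and subcortical neurons were higher or mixed. In 548 control and 511 tomatidine interneuron-like cells the sum was 879 and 941 CPM, a log2 ratio of 0.10 (0.06 to 0.14), and 4 of 7 members had intervals above 0, beside 18.3% of all genes. Dhcr7 led them with 41 and 48.4 CPM, a ratio of 0.24 (0.07 to 0.41), followed by Sqle with 0.18, Srebf2 with 0.11 and Insig1 with 0.09. In 601 and 948 subcortical neuron-like cells the sum differed by 0.01 (-0.02 to 0.04). Hmgcs1 was lower there, at 246 and 223 CPM, a ratio of -0.14 (-0.20 to -0.09). Dhcr7 (0.22), Sqle (0.13) and Insig1 (0.12) were higher, so a sum near 0 held members that differed in sign. Of the 7 members, 3 had intervals above 0 and 1 below 0, beside 35% and 22.9% of all genes. The median of all genes was 0.05, so mixed signs were common in this class. The libraries drew this class from its 3 clusters in different shares. The Pou4f2-led cluster had 194 control and 676 tomatidine cells, the Gbx2-led 280 and 236, and the Gpr151-led 127 and 36. Hmgcs1 stood at -0.04 (-0.13 to 0.05), -0.20 (-0.29 to -0.12) and 0.13 (-0.21 to 0.46) in them in this order. Insig1 stood at 0.12 (0.03 to 0.21) in the Pou4f2-led and -0.12 (-0.23 to -0.02) in the Gbx2-led cluster. Dhcr7 and Sqle were above 0 in all 3, with their interval in the Pou4f2-led cluster only.

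Oligodendrocyte-like cells, which had the highest control level, differed little between the libraries. The sum had a log2 ratio of 0.02 (-0.003 to 0.05), below the median of 0.06 over all genes, and single members lay between -0.05 for Lss and 0.08 for Dhcr7. The 3 clusters of this class were not alike. The cluster led by Klk6 and Gjb1 had 1543 and 1649 CPM in 1464 and 1287 cells, a ratio of 0.10 (0.07 to 0.13), with Dhcr7 at 0.22 and Insig1 at 0.14. The cluster led by Plin4 had 1414 and 1410 CPM, a ratio of -0.0045 (-0.05 to 0.04). A small cluster led by Tex52, with 54 and 55 cells and a median of 15988 UMIs per cell, had 1141 and 727 CPM, a ratio of -0.65 (-0.78 to -0.52), with all 7 members below 0 and Sqle lowest at -1.05. Without the Tex52-led cluster the class had a ratio of 0.07, and without the Klk6-led cluster it had -0.13, so the value near 0 depends on both. In 375 and 345 OPC-like cells the sum differed by 0.01 (-0.07 to 0.09), while the 29 oligodendrocyte markers summed to 20264 and 11234 CPM in them, with none of the 29 higher in the tomatidine library. Lss was the only member at least 25% higher in them, with 89 and 100 UMIs, 30.4 and 45.9 CPM and a ratio of 0.59 (0.16 to 1.02), beside 9.48% of all genes.

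Microglia-like cells had low levels and higher tomatidine values. The sum was 573 and 640 CPM in 918 and 815 cells, a log2 ratio of 0.16 (0.07 to 0.25), beside a median of 0.03. Insig1, 89.1 and 113 CPM, had 0.34 (0.12 to 0.57), and Sc5d, 41.4 and 52.1 CPM, had 0.33 (-0.004 to 0.67), which turned to between -0.09 and -0.05 with 3 other clusterings. These 2 members were at least 25% higher, beside 10.5% of all genes. Srebf2 was 199 and 227 CPM, a ratio of 0.19 (0.03 to 0.34). With the same mix of its 2 clusters in both libraries, a setting chosen after the values were seen, the sum had a ratio of 0.10. A further cluster led by Ccl12, with the microglial markers Ctss and Ly86 among its 10 leading genes, stayed unnamed. Its 111 control and 95 tomatidine cells were not counted in this class. Markers of other cells moved within the class. The 31 astrocyte markers summed to 4393 CPM in the control and 5472 CPM in the tomatidine library, with 28 of them higher in the latter. The 16 border macrophage markers summed to 5257 and 2232 CPM and the 17 T or NK cell markers to 182 and 18.2 CPM. The part of these markers in the members' ratios was not tested.

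Endothelial-like and meningeal-like cells had intervals of the sum that held 0. In 305 and 420 endothelial-like cells the sum was 869 and 838 CPM, a ratio of -0.05 (-0.12 to 0.02). Dhcr7 was the lowest member there, at 55.2 and 44.3 CPM, a ratio of -0.32 (-0.62 to -0.01) on 194 and 171 UMIs. In the same cells the 31 astrocyte markers summed to 10815 and 8062 CPM, with 2 of them higher in the tomatidine library, the 21 choroid plexus markers to 2403 and 179 CPM, and the 21 mural markers to 7449 and 9468 CPM. The part of these markers in the ratio of Dhcr7 was not tested. Meningeal-like cells had 772 and 749 CPM, a ratio of -0.04 (-0.15 to 0.07), which was -0.16 with all deposited cells clustered again and -0.24 under a stricter filter of cells. At these depths and with the filter used here, no difference of the sum was detectable in endothelial-like, meningeal-like or OPC-like cells.

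The profiles of the members over the cell groups were compared with those of other genes. Over 24 points, which are 12 cell groups in each of the 2 libraries, the correlation of each member with the mean of the other members lay between 0.71 for Hmgcs1 and 0.86 for Lss. Points of the same library or cell group share their cells' depth and free RNA, so these values are a description. Among 12537 other genes with at least 1000 UMIs, the profile most like the members' mean was that of Fasn, fatty acid synthase, with r = 0.91. It was followed by Paqr4, with 0.89, and by the sterol enzymes Cyp51 (0.89), Msmo1 (0.89) and Idi1 (0.87). Of the 14 other synthesis enzymes, 5 were among the 20 most similar genes. Lbr (0.14) and Ebp (0.08) were far down the list.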

How the data were processed

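The deposited files were cell-by-gene tables of whole UMI counts, 1 per library, which the authors made with Cell Ranger from probe-based libraries sequenced on an AVITI instrument. The submitters' processing notes name version 8.0.0 and the build mm10, the file headers version 7.1.0. Following 1 part of the study's Methods, cells with at least 500 UMIs, 250 genes, a complexity (log genes per log UMIs) over 0.8 and under 20% mitochondrial UMIs were kept. The study's section on quality control also removed cells with more than 6000 genes and set a lower mitochondrial limit. That part entered here only as the stricter filter, with at most 6000 genes and under 10% mitochondrial UMIs. Scrublet (scanpy 1.11.5) called only 2 and 3 doublets, so the 2% of cells with the highest scores (309 and 266) were removed instead, and doublets remain possible. Cells were integrated (RPCA) and clustered in Seurat 5.3.0 with 2000 variable genes, 30 components and resolution 0.8, leaving out the genes of the sterol and lipid lists and sex-linked genes. A cluster took the class whose markers led its 10 leading genes, with at least 3 raised markers (2-fold, in 10% of cells). This rule was settled after clusters were seen, and 8 clusters stayed unnamed. Counts were summed per library and class and divided by all UMIs of those cells. Intervals are exact Poisson for levels and exact conditional binomial (Clopper-Pearson) for ratios, at 95%. They were run only on simulated Poisson counts, the model they assume, so that run cannot show how they hold for real cells. The intervals cover counting error only. Calls need a level at least 25% higher, or lower by the same fold, and 100 UMIs over both libraries. Genes named are the 7 members, the 2 highest and 2 lowest of each list over all kept cells and in the class with the largest change, and the 5 most similar profiles on log2(CPM + 1). Any gene named beyond these was chosen after its values were seen. The members and lists were chosen with earlier results of these data known. Some genes of the lists are not reported here and entered no median or count of a list. TMM factors came from edgeR 4.0.16. Promoter sequences are from RefSeq. Free RNA was not separated from the cells' own.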

Additional observations from a re-analysis of the deposited data

Results flagged for a closer look

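For the summed members and for 6 single members, the counting interval lay above 0 in at least 1 cell group and below 0 in another. The share of all genes that did so over the 12 groups was not counted, so this is no trait of the members. Within single groups, intervals lay above 0 for 6.43% (meningeal-like) to 35% (subcortical neurons) of all genes. They lay below 0 for 6.73% (microglia-like) to 22.9% (subcortical neurons). With 1 library per group these differences between cell groups were not tested, and each pair was picked as the highest and the lowest of those of the 12 groups whose interval lay off 0. The sum differed by 0.31 in log2 ratio between astrocyte-like cells (0.20) and deep-layer or subicular neurons (-0.11). Insig1 differed by 0.58 between the same groups (0.43 and -0.15). Dhcr7 differed by 0.56 between astrocyte-like (0.24) and endothelial-like cells (-0.32), the latter on fewer than 200 UMIs per library, in cells where the astrocyte markers summed to 10815 and 8062 CPM. Sqle differed by 0.43 between astrocyte-like cells (0.22) and dentate granule neurons (-0.21). Hmgcs1 differed by 0.41 between astrocyte-like cells (0.19) and CA1 neurons (-0.22), and it had intervals below 0 in 5 of the 12 groups. Sc5d differed by 0.35 between CA1 neurons (0.17) and deep-layer or subicular neurons (-0.18), and Srebf2 by 0.27 between microglia-like cells (0.19) and dentate granule neurons (-0.08).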

How the results depend on the processing

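No paired analysis was possible because each group is 1 library, and for the same reason no replicate could be left out. The astrocyte-like ratio of the sum stayed above 0 under all 13 alternatives, from 0.13 to 0.31, and Insig1 between 0.36 and 0.48 under its 9, whereas Srebf2 ran from -0.03 to 0.12. The sum stayed below 0 in dentate granule neurons (-0.095 to -0.057) and deep-layer or subicular neurons (-0.15 to -0.047), and ran from -0.14 to 0.0029 in CA1 neurons. The cause of each shift below was not tested. TMM scaling gave 0.036 over all kept cells, 0.056 in interneurons, -0.047 in excitatory neurons, -0.047 in oligodendrocyte-like cells and -0.035 in subcortical neurons. All deposited cells, clustered again, gave 0.16 in astrocyte-like cells, -0.025 in excitatory neurons, 0.038 in interneurons, -0.16 in meningeal-like cells, 0.066 in oligodendrocyte-like cells and -0.039 in subcortical neurons. The stricter filter of at most 6000 genes and under 10% mitochondrial UMIs gave 0.051 over all kept cells, -0.24 in meningeal-like and 0.056 in oligodendrocyte-like cells. Without integration astrocyte-like cells had 0.13, with the mean over cells of CPM 0.24. Resolution 1.5 gave 0.24 in astrocyte-like cells and -0.022 in excitatory neurons, and resolution 0.3 gave 0.029 in excitatory and 0.040 in subcortical neurons. Choices added after seeing the data were the same mix of clusters (0.23 in astrocyte-like cells, -0.071 in excitatory neurons) and leaving out a cluster: astrocyte-like cells had 0.31 without the Slc25a18-led and 0.15 without the Myoc-led one, oligodendrocyte-like cells -0.13 without the Klk6-led and 0.071 without the Tex52-led one. Pairs of a member and 1 of the 9 classes were also counted, without the excitatory subgroups. All 7 members were tested in each class except meningeal-like cells, where 6 were. Pairs at least 25% higher numbered 4. The share of all genes that much higher ran from 4.28% in astrocyte-like cells to 16.7% in subcortical neurons. The higher pairs numbered 2 with TMM, without integration, at resolution 1.5 or with all deposited cells, and 7 with the mean over cells. Lower pairs numbered 0, while the share of all genes lower by that fold ran from 1.24% in excitatory neurons to 12.2% in meningeal-like cells. They numbered 1 at resolution 0.3, with all deposited cells or with the same mix. They numbered 2 with TMM, and 3 with the mean over cells or the stricter filter. Sc5d in microglia-like cells turned from 0.33 to -0.055 without integration, -0.056 at resolution 1.5 and -0.091 with all deposited cells. With all deposited cells the summed level was 1428 CPM in control oligodendrocyte-like cells, and 1229 and 1372 CPM in control and tomatidine astrocyte-like cells. Without mitochondrial genes in the total the latter were 1470 and 1681 CPM.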

Other observations

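The 4 other named classes had fewer than 100 cells in at least 1 library and were left out of the comparisons. In choroid plexus-like cells, 377 control and 49 tomatidine cells, the summed members were 882 and 1045 CPM, a log2 ratio of 0.24 (0.12 to 0.36). Sqle was 125 and 194 CPM there, a ratio of 0.63 (0.33 to 0.92). In the same cells the 20 ependymal markers summed to 2452 and 6033 CPM, with all 20 higher in the tomatidine library. The part of these markers in the ratios was not tested. The sum was 1104 and 1025 CPM in mural-like cells, 825 and 848 CPM in border macrophage-like cells and 817 and 940 CPM in T or NK cell-like cells, and all 3 intervals of the ratio held 0. In the 8 unnamed clusters, 1775 control and 1863 tomatidine cells, the sum was 966 and 1128 CPM, a ratio of 0.22 (0.20 to 0.25). Insig1 was 185 and 255 CPM. These clusters differ in kind, and the libraries drew on them in different shares. The Sox14-led cluster had 181 control and 512 tomatidine cells, the Tnnt1-led 348 and 170, and the Igfbpl1-led 154 and 29. Median depth was 3032 and 4304 UMIs. The part of the mix and of depth in the ratio was not tested.

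In deep-layer or subicular neurons, the synthesis enzymes to squalene had a median log2 ratio of -0.15, beside 0.03 for all genes. The efflux, storage and removal list stood at 0.27 there, with 8 of 9 genes above 0. Of these genes, 4 had intervals above 0, beside 18.5% of all genes. The same list stood at 0.18 in CA1 neurons, with 9 of 9 genes above 0, and at 0.13 in all excitatory neurons. The medians of all genes were 0.06 and 0.05 there. In CA1 neurons 4 of the 9 genes had intervals above 0, beside 31.7% of all genes. The efflux list stood at 0.07 in CA3 neurons and interneurons and at -0.02 in dentate granule neurons. In subcortical neurons it stood at -0.20, beside 0.05 for all genes, with 7 of 9 genes below 0. Of these, 4 had intervals below 0, beside 22.9% of all genes.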
